A study of Mus musculus with 48 samples.

Results

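White fat of young mice was compared after 2 months of food restriction with white fat of mice that ate freely, using 6 of the 48 samples of the series. The restricted group (labelled ALDR) was moved to the smaller ration at 12 weeks of age and the fully fed group (AL) was never restricted, both groups were 5 months old, and each holds 3 libraries. All mice were females of the C3B6F1 hybrid strain, housed 5 to a cage. Restricted mice received 60% of the intake of fully fed mice as 1 meal per day, reached by steps of 10% per week over 4 weeks. The labels call the samples biological replicates, and all mice were killed in the 3 hours ahead of the restricted animals' daily meal, so hours since the last meal and the 2 months of restriction cannot be told apart. The protocol text names epididymal fat although the mice were female, so the depot is given here only as white fat.

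The wider study measured white fat, brown fat and liver under several diet schedules. The groups set beside the young comparison below were white fat at 26 months from fully fed mice (n = 3), from mice restricted only from 24 months (n = 5, also labelled ALDR) and from mice restricted from 12 weeks on (labelled DR, n = 3). The labels give 26 months for the old mice and the protocol text 27 months, so the late restriction lasted 2 or 3 months. A further pair of groups was brown fat at 5 months from the same diets as the young white fat (n = 3 each). White-fat RNA was depleted of ribosomal RNA and sequenced in pairs, whereas brown-fat libraries were made from polyadenylated RNA.

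White adipose tissue stores energy as triglyceride. Its adipocytes make fatty acids from glucose after a meal, esterify them to glycerol, release them again through lipolysis between meals, and secrete hormones such as leptin that report the size of the store. Fat tissue also holds macrophages, fibroblasts, blood vessels and preadipocytes within a collagen matrix that grows as fat cells enlarge, and it has a circadian clock that responds to the time of feeding.

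The 6 libraries held 14124556 to 19062509 counts each, so that 3 counts in a library correspond to 0.157 to 0.212 CPM (counts scaled to a common library size with TMM factors). Fully fed replicate 2 stood apart. Its 10 liver markers summed to 1993 CPM against 22.4 and 37.6 CPM in the other fully fed libraries and 41.4 to 88.6 CPM in the restricted ones. Albumin (Alb) alone was at 1398 CPM there, against 18.1 to 81 CPM in the other 5 libraries. On the second principal component, which held 24.1% of the variance, that library lay at -52.5 and the other fully fed libraries at 38.6 and 45.9. Where leaving it out changed the count of a list, that count is given below. The 6 adipocyte markers summed to 16730 to 23020 CPM in fully fed and 25160 to 28020 CPM in restricted libraries, and the 14 skeletal muscle markers to at most 111 CPM. Mitochondrially encoded genes held 0.33 to 0.885% of the counts in fully fed and 1.3 to 2.32% in restricted libraries, and the 10 most abundant genes 7.32 to 9.68% and 14.8 to 17.3%; the part of these differences in the results below was not tested.

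**Figure D1:**
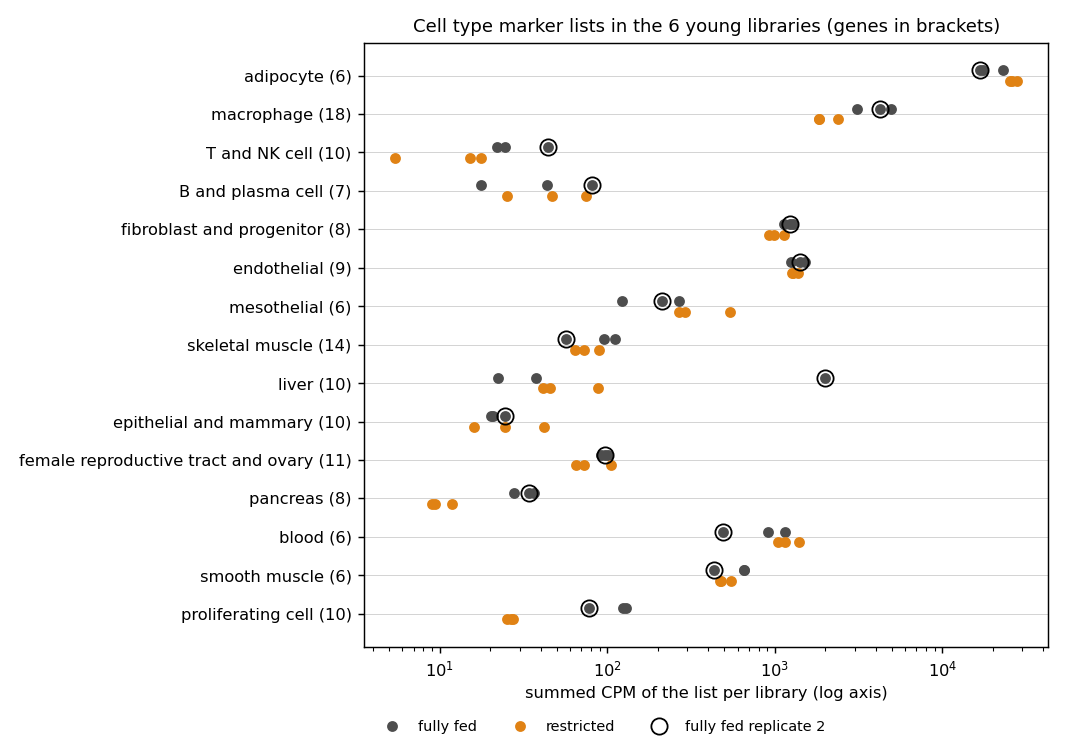
Summed CPM (log axis) of 15 lists of cell type markers in the 3 fully fed and 3 restricted young libraries. Each point is 1 library and the ring marks fully fed replicate 2, whose 10 liver markers summed to 1993 CPM; the proliferating cell markers lay at 78.4 CPM or above in every fully fed library and at or below 27.5 CPM in every restricted one.

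Restriction was accompanied by broad change. Of 15828 genes tested in a model of all 22 white-fat libraries, 4609 changed at an adjusted p below 0.05, which is 29.1% of the genes tested. Of these, 2341 rose (14.8%) and 2268 fell (14.3%), and the median log2 fold change of all genes tested was -0.012. Among genes that changed by at least 1 on the log2 scale, 601 rose (3.8%) and 1103 fell (6.97%). Groups did not overlap in CPM for 6845 genes (43.2%), including 4434 of the 4609 that changed. Leaving out 1 of the 6 libraries at a time gave 2998 (without restricted replicate 2) to 4306 changed genes; the lowest count is over 1.5 times smaller than that from all libraries. Without fully fed replicate 2 there were 3898, of which 3486 were among the 4609.

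Genes of fatty acid synthesis rose. Of the 14 members of that list, 11 rose and 1 fell, against 14.8% and 14.3% of all genes tested, and their median log2 fold change was 1.98. Summed over the list, fully fed libraries held 12390, 18340 and 32720 CPM and restricted libraries 99410, 130000 and 132200 CPM. Without fully fed replicate 2, which had the lowest sum, 9 rose and 1 fell with a median of 1.72. Of the 6 general adipocyte markers, 3 rose (median 0.377), or 1 without restricted replicate 1 or 2 or fully fed replicate 1 or 2, and their part in the lipid results was not tested. In bulk tissue, more cells of a type and more RNA per cell cannot be told apart, nor can fewer cells and less RNA per cell.

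Acaca, the acetyl-CoA carboxylase that commits carbon to fatty acids, was at 961, 467 and 1366 CPM in fully fed replicates 1 to 3 and at 10350, 9856 and 8331 CPM in the restricted ones. All restricted libraries lay above all fully fed ones, with a mean 10.2 times as high (log2 fold change 3.35 ± 0.43 SE, adjusted p = 2.91e-05). Fasn, the fatty acid synthase itself, was at 3332, 2675 and 5888 CPM fully fed and 27860, 28710 and 21860 CPM restricted. The groups did not overlap (2.72 ± 0.46, adjusted p = 0.000303). Scd1, the desaturase that makes oleate, was the most abundant gene of every restricted library by raw counts, at 79630, 83240 and 61390 CPM against 10380, 7392 and 21260 CPM. It rose by 2.52 ± 0.39 on the log2 scale (adjusted p = 0.000147). Elovl6, which lengthens palmitate, rose from 112, 39.4 and 189 CPM to 1607, 1375 and 1054 CPM (3.57 ± 0.61, adjusted p = 0.000371). In each of these 4 genes fully fed replicate 2 was the lowest library and the groups stayed apart.

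Among other genes of the list, the citrate carrier Slc25a1 rose by 1.93, malic enzyme Me1, a source of NADPH, by 2.04, and Thrsp, a small protein that promotes lipogenesis, by 2.73 on the log2 scale. ATP-citrate lyase (Acly), which turns citrate into acetyl-CoA, was at 1001, 348 and 1077 CPM fully fed and 2601, 1558 and 1355 CPM restricted; its groups did not overlap, but the difference did not pass (1.19 ± 0.48, adjusted p = 0.0708). Of the lipogenic regulators, Mlxipl, the carbohydrate-responsive factor ChREBP, was at 28.3, 47.8 and 36.5 CPM fully fed and 74, 93.3 and 63.5 CPM restricted, and rose by 1.04 ± 0.25 (adjusted p = 0.00419). Srebf1, which encodes the sterol-regulated factor SREBP-1, had a log2 fold change of 0.51 with an adjusted p of 0.0801, or 0.0418 without fully fed replicate 3. Scd2, a second desaturase gene, was the member that fell (-1.96 ± 0.65, adjusted p = 0.031). That call was lost on leaving out restricted replicate 1 (adjusted p = 0.0598), 2 (0.114) or 3 (0.0721), or fully fed replicate 1 (0.0853) or 3 (0.0702).

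The stretch before the start of Mlxipl is shown because this gene rose while sterol synthesis genes, described below, mostly did not. Mlxipl has 2 RefSeq windows, and the first with a match is shown. Its 250 bases upstream of the start (GRCm38.p6, chr5:135106641-135106890, plus strand) hold the letters TCACACCAC, a match to the sterol element TCACNCCAC. They are printed in capitals 136 to 128 bases before the start.
Mlxipl: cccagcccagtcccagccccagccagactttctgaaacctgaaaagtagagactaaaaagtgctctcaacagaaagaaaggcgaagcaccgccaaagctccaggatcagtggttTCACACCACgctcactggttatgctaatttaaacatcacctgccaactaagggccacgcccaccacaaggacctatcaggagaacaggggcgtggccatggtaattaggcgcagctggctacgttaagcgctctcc
Searched on both strands in the same 250-base window, that element occurs in 1.22% of 27025 genes in the RefSeq promoter table. It was found in 1 of the 12 genes of the fatty acid list that the table holds (Mlxipl) and in 1 of the 12 matched genes of the cholesterol list (Hmgcs1).

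More genes of cholesterol synthesis and uptake fell than rose. Of 20 genes, 8 fell and 1 rose (median log2 fold change -0.498), beside 14.3% lower and 14.8% higher among all genes tested. Without fully fed replicate 2 the counts were 9 and 1. Summed over the list the groups overlapped, at 2200, 1414 and 2236 CPM fully fed and 1777, 1671 and 1477 CPM restricted. Hmgcs1, the HMG-CoA synthase that opens the pathway, was at 352, 294 and 446 CPM fully fed and at 236, 212 and 197 CPM restricted. The groups did not overlap and the gene fell by 0.76 ± 0.19 on the log2 scale (adjusted p = 0.00488). The sterol carrier Stard4 was at 11.6, 13.8 and 9.12 CPM against 5.19, 4.75 and 3.46 CPM and had a log2 fold change of -1.37 ± 0.21 (adjusted p = 0.000112). Srebf2, the regulator of this pathway, fell too (-0.75). Fdft1, the squalene synthase that commits carbon to sterols, was the exception, at 46.9, 41.6 and 51.3 CPM fully fed against 132, 130 and 105 CPM restricted (1.40 ± 0.15, adjusted p = 5.54e-06). Without restricted replicate 3, or without fully fed replicate 1 or 3, the number that rose was 2.

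Hmgcs1 carries the same kind of element in the same window, and is shown beside its fall. The 250 bases upstream of its start (GRCm38.p6, chr13:119690101-119690350, plus strand) hold TCACCCCAC, in capitals, 137 to 129 bases before the start.
Hmgcs1: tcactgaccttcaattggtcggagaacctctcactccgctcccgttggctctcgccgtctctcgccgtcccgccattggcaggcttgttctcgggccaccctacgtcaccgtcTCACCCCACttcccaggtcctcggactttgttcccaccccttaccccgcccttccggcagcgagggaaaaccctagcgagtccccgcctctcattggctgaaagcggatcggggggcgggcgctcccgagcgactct
A match of letters is a description of the sequence and was not tested against binding or expression.

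Genes of glucose use rose in number. Of 24 genes of glucose uptake, glycolysis and the pentose phosphate pathway, 14 rose and 2 fell (median 0.548). The rise was largest for Tkt, transketolase of the pentose phosphate pathway, at 739, 494 and 1123 CPM fully fed and 5550, 5579 and 4539 CPM restricted. Restricted libraries all lay above the fully fed ones (2.73 ± 0.37, adjusted p = 4.15e-05). Both measured subunits of the E1 component of pyruvate dehydrogenase, which turns pyruvate into acetyl-CoA, rose: Pdha1 by 1.76 ± 0.18 (adjusted p = 3.76e-06) and Pdhb by 1.18. Pdk4, a kinase of pyruvate dehydrogenase in the same list, was called higher as well. That call was lost without restricted replicate 1 (adjusted p = 0.0751) or 2 (0.168), fully fed replicate 1 (0.137) or 2 (0.0851), or the filter on low counts (0.0562). In glycolysis proper the changes were smaller, with Gpi1, glucose-6-phosphate isomerase, at 1.00, Pkm, pyruvate kinase, at 0.87 and Eno1, an enolase, at 0.80, while Pfkp, the platelet type of phosphofructokinase, fell by 0.83. The insulin-responsive glucose transporter Slc2a4 rose by 0.55, a call that was lost without restricted replicate 1 (adjusted p = 0.145) or fully fed replicate 1 (0.0802) or 2 (0.117). The number that rose was 8 without restricted replicate 1, 9 without fully fed replicate 1 and 8 without fully fed replicate 2, and the number that fell was 1 without restricted replicate 2 or fully fed replicate 3.

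Many mitochondrial genes of carbon use rose. In the tricarboxylic acid cycle 14 of 17 genes rose and none fell in this test (median 0.625). Pcx, pyruvate carboxylase, which refills the cycle with oxaloacetate, was at 961, 1123 and 1213 CPM fully fed and 3578, 4185 and 2719 CPM restricted, without overlap (1.67 ± 0.23, adjusted p = 5.23e-05). Sdha, a subunit of succinate dehydrogenase, rose by 1.19. The count was 8 without restricted replicate 2 or fully fed replicate 1, 11 without fully fed replicate 2, and 9 in a fit of only the groups compared. In the breakdown of branched-chain amino acids, a source of acetyl-CoA for fat cells, 13 of 19 genes rose and 0 fell at the same threshold (median 0.5). Hibch, a hydrolase of valine breakdown, rose by 1.06 ± 0.16 (adjusted p = 0.00012), Bckdha, a subunit of the dehydrogenase that commits these amino acids to oxidation, by 0.89, and Acadsb, which acts on isoleucine, by 0.74. Again 13 rose without fully fed replicate 2.

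Of 17 genes of mitochondrial fatty acid oxidation 8 rose and 1 fell (median 0.45). Acadvl and Hadha, enzymes for long-chain fatty acids, rose by 0.87 and 0.79 on the log2 scale. Cpt1a, the carnitine transferase that admits fatty acids to mitochondria, was the member that fell (-0.55, adjusted p = 0.0233), but not without restricted replicate 1 (0.0882), restricted replicate 2 (0.103) or fully fed replicate 2 (0.0959). The number that rose was 5 without restricted replicate 1, restricted replicate 2 or fully fed replicate 1, 6 without fully fed replicate 2, 12 without fully fed replicate 3, and 4 in a fit of only the groups compared.

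In triglyceride synthesis 7 of 13 genes rose and 1 fell (median 0.762). Pck1, the cytosolic enzyme with which fat cells make glycerol 3-phosphate during fasting, was at 537, 888 and 1411 CPM fully fed and 5836, 6400 and 5074 CPM restricted. No restricted library came near the fully fed range (2.61 ± 0.33, adjusted p = 2.82e-05). Gpam, Lpin1 and Dgat1, an acyltransferase, a phosphatase and the last acyltransferase of the pathway, rose by 1.31, 1.39 and 1.40 on the log2 scale. Dgat2, the other enzyme of the last step, had a log2 fold change of -0.05 with an adjusted p of 0.934. Gk, the glycerol kinase, was at 33.5, 34.8 and 35.9 CPM fully fed and 14, 11.8 and 11.6 CPM restricted, and fell by 1.48 ± 0.18 (adjusted p = 1.68e-05). The counts were 6 and 1 without fully fed replicate 2.

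In lipolysis and the lipid droplet, 6 of 17 genes rose and 1 fell (median 0.414), and the list's summed level overlapped between the groups, at 15380 to 21480 CPM fully fed and 20620 to 26130 CPM restricted. Pnpla2, the adipose triglyceride lipase that starts lipolysis, was at 164, 465 and 264 CPM fully fed and 750, 1100 and 645 CPM restricted. Replicate 2 was the highest library of each group and the groups did not overlap (1.48 ± 0.32, adjusted p = 0.00227). Its inhibitor G0s2 fell by 0.90 ± 0.20, from 294, 270 and 460 CPM to 214, 143 and 191 CPM. Adrb3, the beta-3 adrenergic receptor that turns lipolysis on, rose by 1.48, and Pde3b, the phosphodiesterase through which insulin turns it off, by 1.57. Hormone-sensitive lipase (Lipe) rose by 0.62. The perilipins that coat the droplet did not pass, with Plin1 at 0.31 (adjusted p = 0.162) and Plin4 at 0.49 (0.112). Without fully fed replicate 3, 10 genes rose, and without fully fed replicate 2, 5 rose.

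Of 12 genes of fatty acid uptake 4 rose and 1 fell (median 0.258), beside 14.8% higher and 14.3% lower among all genes tested. Slc27a1, a transport protein that activates long-chain fatty acids at the membrane, was at 291, 382 and 450 CPM fully fed and 2128, 2504 and 1589 CPM restricted, and the groups lay far apart (2.47 ± 0.29, adjusted p = 1.17e-05). Acsl1, the main acyl-CoA synthetase of fat cells, rose from 2172, 1483 and 3342 CPM to 7665, 6087 and 6037 CPM. Lipoprotein lipase (Lpl) at 0.26 (adjusted p = 0.414) and the scavenger receptor Cd36 at -0.14 (0.573) did not pass, and the lipoprotein receptor Vldlr fell by 0.80. The number that rose was 2 without restricted replicate 1, 3 without restricted replicate 2 or fully fed replicate 1 or 2, and 6 without fully fed replicate 3.

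**Figure D2:**
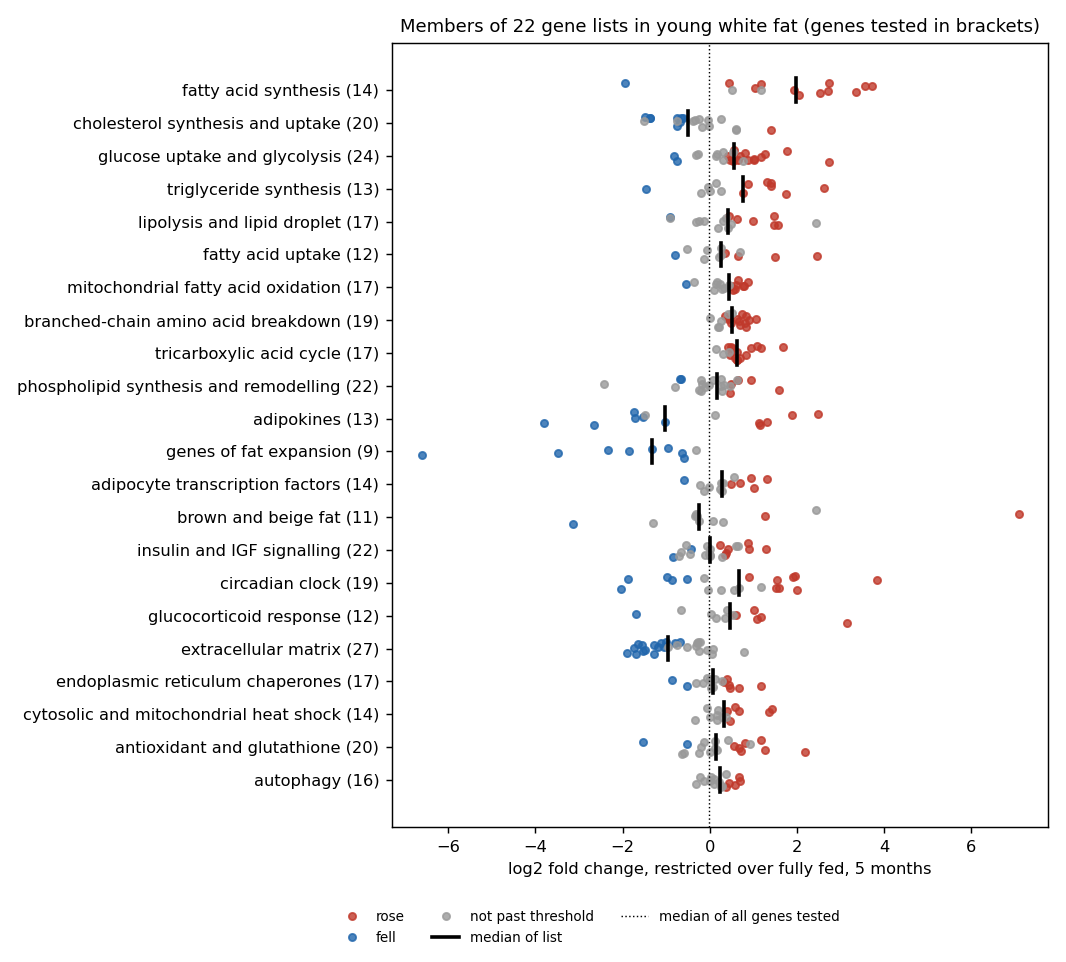
Log2 fold change of restricted over fully fed white fat at 5 months for each tested member of 22 gene lists, coloured by whether it rose, fell or did not pass at an adjusted p of 0.05; black bars are list medians and the dotted line the median of all genes tested (-0.012). Fatty acid synthesis lies farthest to the right (median 1.98) and genes of fat expansion farthest to the left (median -1.34).

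Hormones secreted by fat split in direction. Of 13 tested adipokine genes, 5 rose and 6 fell (median -1.03). Lep (chromosome 6, positions 29060220 to 29073877 of GRCm38), which encodes leptin, was at 3925, 3295 and 4076 CPM fully fed and 331, 90.6 and 390 CPM restricted. The restricted mean was 0.0719 times the fully fed mean and restricted replicate 2 was the lowest library (-3.80 ± 0.52, adjusted p = 5.41e-05). Cfd, adipsin, a complement factor secreted by adipocytes, was at 2045, 2525 and 2357 CPM fully fed and 8958, 9518 and 7299 CPM restricted, and rose by 1.90 ± 0.27 (adjusted p = 5.83e-05). Adipoq, the adiponectin gene, was at 4253, 3153 and 4501 CPM fully fed and 4725, 3749 and 4457 CPM restricted. Its groups overlapped (0.12 ± 0.14, adjusted p = 0.557).

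Among the other secreted factors, Nrg4, a ligand of the epidermal growth factor family, rose from 31.5, 22.4 and 58 CPM to 240, 221 and 164 CPM (2.49 ± 0.26, adjusted p = 6.02e-06). Nampt, the NAD-synthesis enzyme also known as visfatin, rose by 1.31, retinol binding protein (Rbp4) by 1.15 and resistin (Retn) by 1.12. Rarres2, which encodes chemerin, a chemoattractant, fell by 1.52 ± 0.17 (adjusted p = 8.18e-06). The inflammatory cytokine Tnf was low in every library, at 2.69, 2.3 and 3.3 CPM fully fed and 0.51, 0.559 and 0.221 CPM restricted, and fell (adjusted p = 0.00072). The number that fell was 3 without restricted replicate 2 or without fully fed replicate 2.

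Genes that mark the expansion of fat fell. Of 9 such genes 8 fell and 0 rose (median -1.34), and without fully fed replicate 2 again 8 fell. Mest, an imprinted gene whose level follows fat cell enlargement, was at 859, 553 and 913 CPM fully fed and 163, 34.8 and 260 CPM restricted (-2.35 ± 0.58, adjusted p = 0.0055). Sfrp5, a secreted Wnt inhibitor of enlarging fat, was at 93.5, 136 and 99.5 CPM against 12.9, 2.52 and 14.3 CPM (-3.48 ± 0.62, adjusted p = 0.000511). Npr3, the clearance receptor for natriuretic peptides, was at 1662, 1725 and 1859 CPM against 514, 253 and 672 CPM (-1.87 ± 0.32, adjusted p = 0.000352). Restricted replicate 2 was the lowest library for all 3 genes and for Lep. Without that library 5 of the 9 fell.

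**Figure D3:**
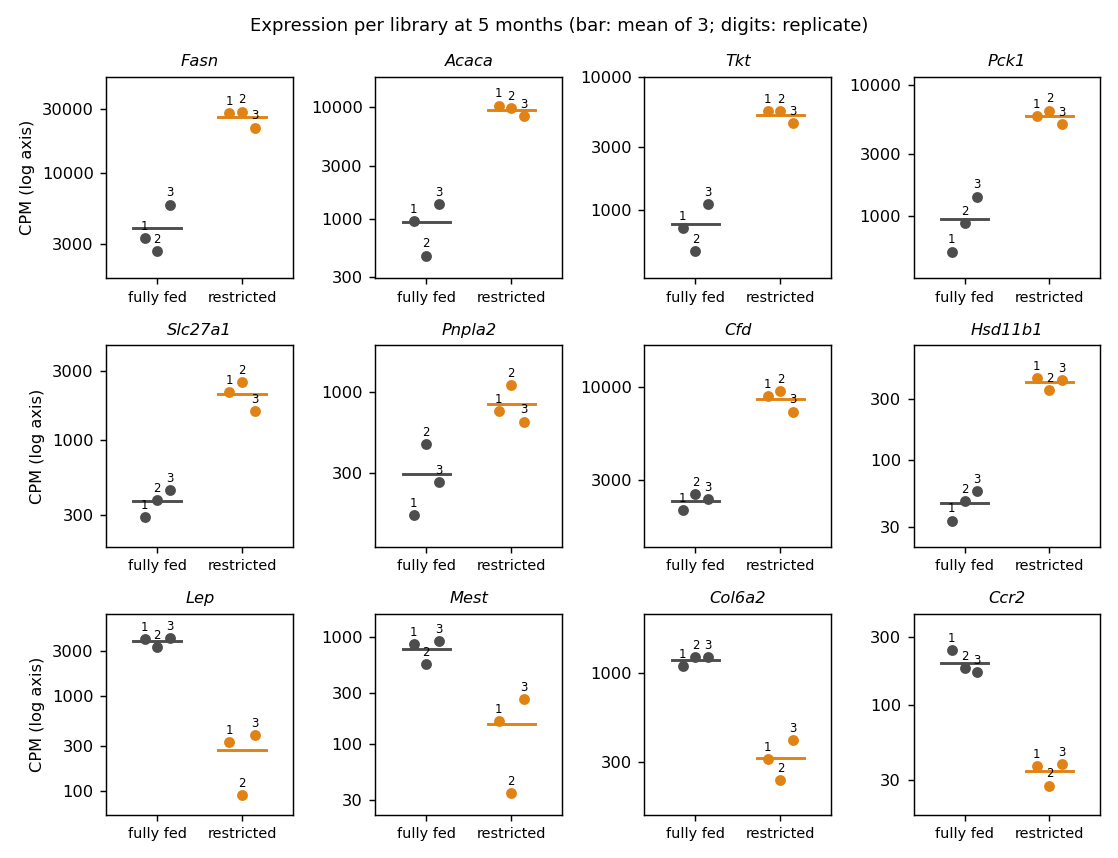
CPM (log axis) of 12 genes in each young white-fat library, fully fed on the left and restricted on the right of each panel; digits give the replicate and bars the mean of 3. In each panel the restricted libraries lie entirely above (first 8 genes) or entirely below (Lep, Mest, Col6a2, Ccr2) the fully fed ones, and restricted replicate 2 is lowest for Lep (90.6 CPM) and Mest (34.8 CPM).

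Of 14 adipocyte transcription factor genes 5 rose and 1 fell (median 0.289), beside 14.8% higher and 14.3% lower among all genes tested. Ppargc1a, a coactivator that promotes mitochondrial genes, was at 2.28, 2.12 and 3.02 CPM fully fed and 6.3, 7.83 and 4.34 CPM restricted (1.32 ± 0.40, adjusted p = 0.0173), and its relative Ppargc1b was at 3.83, 6.89 and 4.07 CPM against 10.7, 12.4 and 6.92 CPM (1.02 ± 0.28, adjusted p = 0.0101). Both rose without overlap, but Ppargc1a did not pass without restricted replicate 2 (adjusted p = 0.0839) or fully fed replicate 1 (0.0599) or 2 (0.0621), nor Ppargc1b without restricted replicate 2 (0.0628) or fully fed replicate 1 (0.0552). Ppara, a receptor that turns on fatty acid oxidation, rose by 0.95 (adjusted p = 0.0374), whereas Pparg, the master regulator of fat cells, had a log2 fold change of 0.23 with an adjusted p of 0.374. The number that rose was 0 without restricted replicate 2 or fully fed replicate 1, 2 without restricted replicate 1, and 3 without restricted replicate 3 or fully fed replicate 2, and the fall, of Cebpb, did not hold without fully fed replicate 3. Of 11 tested genes of brown and beige fat 2 rose and 1 fell, beside the same shares of all genes tested. Ucp1, which uncouples respiration to make heat, was at 0.0518, 0 and 7.09 CPM fully fed and at 1.87, 0.978 and 0 CPM restricted, so the groups overlapped and 1 fully fed library held the highest value. Elovl3, a fatty acid elongase linked to cold-activated brown fat, was at 0, 0 and 0.0702 CPM fully fed and at 4.77, 4.75 and 1.77 CPM restricted (adjusted p = 0.000682). Otop1, a proton channel gene, was at 7.1, 7.31 and 9.33 CPM against 1.36, 1.19 and 0.147 CPM and fell (adjusted p = 0.0079). In this list 1 gene rose when restricted replicate 1 or 2 or fully fed replicate 1 or 2 was left out.

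In insulin and IGF signalling 7 of 22 genes rose and 2 fell (median 0.003), beside 14.8% higher and 14.3% lower among all genes tested. Irs1, the adaptor that carries the insulin signal, was at 119, 171 and 138 CPM fully fed and 329, 422 and 303 CPM restricted, with no overlap (1.30 ± 0.24, adjusted p = 0.000716). Insr, the insulin receptor, rose by 0.91. The binding protein Igfbp4 fell by 0.44. The number that rose was 4 without restricted replicate 1 or fully fed replicate 2, 2 without restricted replicate 2 and 3 without fully fed replicate 1, and without fully fed replicate 2, 1 gene fell. In a fit of only the groups compared, 3 rose and 4 fell, so the balance of directions depended on the fit.

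The circadian clock differed between the groups at this hour of the day. Of 19 clock genes, 8 rose and 5 fell (median 0.668), against 14.8% and 14.3% of all genes tested. Each library left out in turn gave 8 that rose and 4 or 5 that fell. Arntl, Npas2 and Clock were lower in restricted mice. Arntl (BMAL1), the partner without which the clock stops, was at 31.4, 32.6 and 35.3 CPM fully fed and 10.1, 7.41 and 6.85 CPM restricted (-2.03 ± 0.19, adjusted p = 2.5e-06). Npas2, a partner of BMAL1, fell by 1.87 and Clock by 0.53, and Nfil3, a repressor that acts on D-boxes, by 0.99. Bhlhe40, another repressor, fell by 0.87 (adjusted p = 0.0316), but did not pass when any 1 of the libraries other than fully fed replicate 3 was left out (adjusted p = 0.0687 to 0.126).

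Several repressors and output factors of the clock were higher. Per3, a member of the period family, was at 23.9, 31.3 and 27.9 CPM fully fed and 110, 104 and 97.4 CPM restricted (1.91 ± 0.21, adjusted p = 8.4e-06). Per2 rose by 2.00. Tef, a factor that binds D-boxes, was at 79.2, 81 and 93.7 CPM against 241, 259 and 227 CPM (1.52 ± 0.15, adjusted p = 4.14e-06). Its relatives Dbp and Hlf rose by 1.95 and 1.58. Dbp was at 7.36, 6.89 and 6.46 CPM fully fed and 25.9, 25.8 and 28.6 CPM restricted, and its groups lay apart. Rora rose by 0.91 and the repressor Nr1d2 by 1.55, whereas Nr1d1, its close relative, did not pass (-0.04, adjusted p = 0.951).

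Of the 19 clock genes, 16 have a window in the RefSeq promoter table. The E-box CACGTG, which BMAL1 binds, was in the 250 bases upstream of 5 of them (Per1, Cry1, Tef, Ciart and Bhlhe41) and of 6.86% of the 27025 genes, as well as of 3 of the 12 matched cholesterol genes and 3 of the 12 matched fatty acid genes. Of the 5 clock genes with it, Tef rose and the other 4 did not pass. The D-box, searched as TTATGTAA or TTATGCAA, was in 2 of them (Per1 and Per3) and in 1.79% of all genes. Each was searched on both strands, and no match in the windows shown overlaps another motif searched. Tef (GRCm38.p6, chr15:81802423-81802672, plus strand, the first of its 2 windows with a match) and Per3 (chr4:151044666-151044915, minus strand) are shown because both rose without overlap and carry these letters. Capitals mark the E-box 127 to 122 bases before the start of Tef and the D-boxes 205 to 198 and 158 to 151 bases before that of Per3.
Tef: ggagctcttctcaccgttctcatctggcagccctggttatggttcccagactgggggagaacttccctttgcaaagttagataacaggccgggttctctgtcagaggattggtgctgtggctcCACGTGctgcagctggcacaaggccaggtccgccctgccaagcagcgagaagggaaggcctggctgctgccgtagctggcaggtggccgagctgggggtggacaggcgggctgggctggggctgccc
Per3: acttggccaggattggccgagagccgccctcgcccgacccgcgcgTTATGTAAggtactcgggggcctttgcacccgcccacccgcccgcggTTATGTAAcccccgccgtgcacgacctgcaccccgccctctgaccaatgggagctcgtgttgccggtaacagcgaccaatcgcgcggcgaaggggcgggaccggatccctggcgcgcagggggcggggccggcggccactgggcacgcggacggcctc
These windows are 5′ to 3′ on the strand of the gene, and factor binding was not measured.

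**Figure D4:**
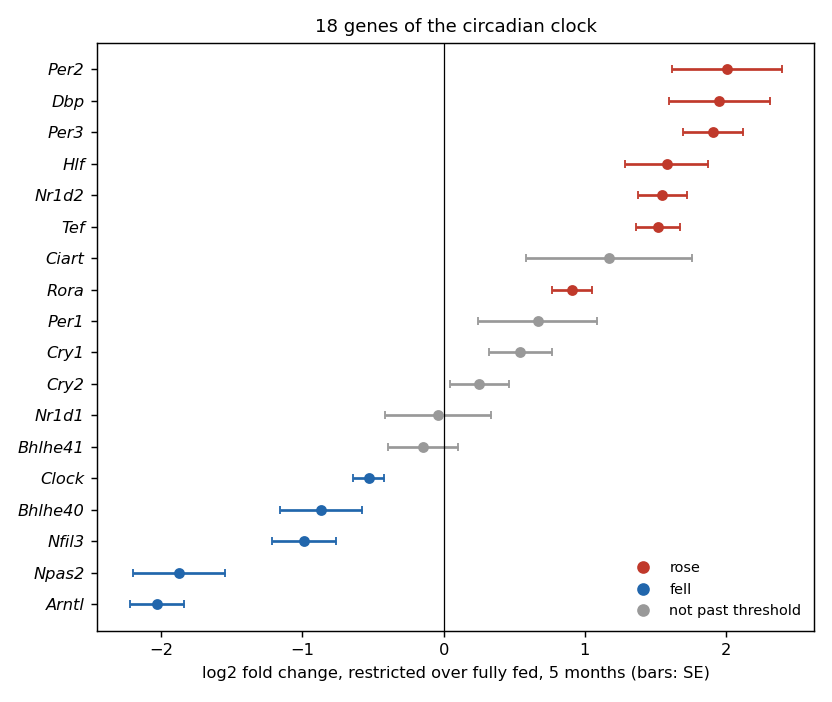
Log2 fold change (restricted over fully fed, 5 months) of 18 of the 19 circadian clock genes with its standard error, coloured by whether the gene rose, fell or did not pass. Per2 (2.00) and Dbp (1.95) lie at the right and Arntl (-2.03) at the left.

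Genes that respond to glucocorticoids, hormones that rise ahead of an awaited meal, were mixed. Of 12 genes 5 rose and 1 fell (median 0.459). Hsd11b1, the enzyme that regenerates active glucocorticoid inside fat cells, was at 33.6, 48 and 57.5 CPM fully fed and 442, 356 and 424 CPM restricted. The restricted mean was 8.78 times the fully fed mean (3.14 ± 0.30, adjusted p = 2.99e-06). The kinase gene Sgk1 rose by 1.02. Fkbp5, a chaperone of the glucocorticoid receptor, rose by 1.17, but not without restricted replicate 2 (adjusted p = 0.0722), fully fed replicate 1 (0.0503) or fully fed replicate 2 (0.0687). The cell cycle inhibitor Cdkn1a, also in this list, fell by 1.70 ± 0.22. The number that rose was 2 without restricted replicate 2 or without fully fed replicate 1 or 2.

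The extracellular matrix fell. Of 27 matrix genes, 15 fell and 0 rose (median -0.954), and without fully fed replicate 2, 12 fell with a median of -0.688. Without fully fed replicate 1, 1 gene rose. Their summed level was 27090 to 31850 CPM in fully fed and 11940 to 17170 CPM in restricted libraries. Col6a2, a chain of the collagen VI that surrounds fat cells, was at 1096, 1240 and 1235 CPM fully fed and 312, 236 and 405 CPM restricted, with a wide gap between the groups (-1.91 ± 0.32, adjusted p = 0.000266). Sparc, a matrix protein that shapes collagen assembly, was at 4591, 4811 and 5314 CPM against 1657, 1487 and 1861 CPM (-1.56 ± 0.33, adjusted p = 0.00165). Col5a2, Col3a1 and Col4a1 fell by 1.64, 1.19 and 1.13. Col1a1, the main chain of collagen I, was at 1047 CPM in fully fed replicate 2 and at 328 and 369 CPM in the others of that group. It fell by 1.73 with all libraries, but by 1.00 and without passing (adjusted p = 0.0607) when that library was left out. Decorin (Dcn) had a log2 fold change of 0.78 (adjusted p = 0.0654).

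Markers of cells other than adipocytes moved with these changes, and their part in the list results was not tested. Of 18 macrophage markers 10 fell and 0 rose (median -0.928), with a sum of 3091 to 4914 CPM in fully fed and 1831 to 2400 CPM in restricted libraries. Without restricted replicate 2, 6 fell, and without fully fed replicate 2, 8 fell. Itgax (CD11c), a marker of macrophages that gather in expanded fat, was at 129, 152 and 47.9 CPM fully fed and at 5.53, 3.63 and 4.12 CPM restricted (-4.64 ± 0.73, adjusted p = 0.000193). Ccr2, the receptor that draws monocytes into tissue, was at 242, 183 and 172 CPM against 38, 27.7 and 39.1 CPM (-2.51 ± 0.31, adjusted p = 2.27e-05). Gpnmb and Mpeg1 fell by 3.92 and 2.33, and the lysozyme gene Lyz2 by 1.39. Adgre1 (F4/80), a general marker of mouse macrophages, was at 258, 239 and 158 CPM against 79.6, 77.6 and 113 CPM (-1.27 ± 0.36, adjusted p = 0.0119), and did not pass without restricted replicate 2 (-1.18, adjusted p = 0.0575). Other members of the list did not pass: among them, Cd163 had a log2 fold change of 0.60 (adjusted p = 0.096), Mrc1 of -0.49 (0.0744) and the complement gene C1qa of -0.30 (0.512).

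All 10 markers of proliferating cells fell (median -2.13), and without fully fed replicate 2, 9 fell. Mki67, which encodes the Ki-67 antigen of cycling cells, was at 43.8, 25.4 and 47.2 CPM fully fed and 10.5, 8.94 and 7.29 CPM restricted (-2.12 ± 0.47, adjusted p = 0.00248). The topoisomerase Top2a and the cell cycle kinase Cdk1 fell by 2.29 and 1.34. Of 10 tested T and NK cell genes 2 fell, the granzyme Gzma (5.12 to 7.01 CPM fully fed, 0.349 to 1.11 CPM restricted) and the NK receptor Klrb1c, while the T cell receptor chain Cd3d overlapped between the groups at 0.883 to 2.84 CPM. In the B cell, skeletal muscle, liver and blood lists no gene passed. The counts in the other lists stand beside 14.8% higher and 14.3% lower among all genes tested. In the fibroblast list 2 of 8 genes were lower, or 1 without restricted replicate 3 or any 1 fully fed library and 0 without restricted replicate 1 or 2. In the smooth muscle list 1 of 6 was lower, or 0 without restricted replicate 2 or fully fed replicate 1, while a fit of only the groups compared called 4 higher and 1 lower. In the endothelial list 1 of 9 was higher, or 0 without restricted replicate 1 or 3 or fully fed replicate 2 or 3. In the mesothelial list 1 of 6 was higher, or 2 without restricted replicate 1 and 0 without restricted replicate 2 or 3 or fully fed replicate 2 or 3. In the list of female reproductive tract and ovary 1 of 6 tested was higher, the oviduct glycoprotein gene Ovgp1 at 0.518 to 1.15 CPM fully fed and 1.25 to 2.10 CPM restricted, or 0 without restricted replicate 1 or 2 or fully fed replicate 1 or 3. Of the pancreas list 1 gene was tested, the elastase gene Cela1, and it was lower, at 27.7 to 36.4 CPM fully fed and 9.01 to 11.8 CPM restricted. Mesothelial markers summed to 123 to 267 CPM in fully fed and 267 to 539 CPM in restricted libraries.

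Genes picked for the smallest adjusted p, outside the lists above, were led by Oscp1. It was at 11.3, 9.25 and 12.5 CPM fully fed and 52.7, 48.3 and 53.1 CPM restricted (2.22 ± 0.16, adjusted p = 4.00e-07). Gucd1 (1.48), Slc5a6, the transporter of biotin and pantothenate (2.14), C2cd2l (1.65), Pth1r, the parathyroid hormone receptor (1.92), and Net1, a guanine nucleotide exchange factor (2.02), rose as well. Slc5a6 was at 19.8, 18.9 and 26 CPM fully fed and 108, 96.8 and 80.2 CPM restricted. Groups that do not overlap were a condition of the pick, as was a change of at least 1 on the log2 scale. Among genes that fell, Dtx4, a ubiquitin ligase gene, was at 84.4, 115 and 106 CPM fully fed and at 24.3, 24.5 and 23.7 CPM restricted (-2.07 ± 0.19, adjusted p = 2.24e-06). H2-DMb1, which loads peptides onto MHC class II, fell by 2.24, the kinase gene Rps6ka3 by 1.70 and Ubd, an inflammation-induced ubiquitin-like modifier, by 4.76 ± 0.53 (adjusted p = 1.10e-05), from 81.7, 101 and 94.6 CPM to 2.89, 4.05 and 3.24 CPM.

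By size and under the same conditions, Rassf6, Acsm3 and Fam13a led the rises among genes with a mean of at least 5 CPM in the higher group. That rule lets in genes at low levels in the other group, such as Rassf6 at 0.415, 0.242 and 0.912 CPM fully fed. Fam13a, a gene linked to fat distribution in humans, was at 17.7, 35.3 and 27.9 CPM fully fed and 587, 879 and 515 CPM restricted (4.62 ± 0.59, adjusted p = 2.91e-05). Acsm3 and Acsm5, medium-chain acyl-CoA synthetases of mitochondria, rose by 4.74 and 3.89, and Slc2a5, the fructose transporter, by 3.96. Mmd2 also belongs to this group by size, at 0.104, 0.605 and 0.632 CPM against 10.2, 15.4 and 1.91 CPM, but its call was lost without restricted replicate 2 (adjusted p = 0.0716) or fully fed replicate 1 (0.0789). The largest falls were in genes near 0 after restriction. Tph2, a tryptophan hydroxylase of serotonin synthesis, was at 156, 82.6 and 133 CPM fully fed and 0.596, 0.699 and 1.03 CPM restricted (-7.30 ± 1.49, adjusted p = 0.00158). Mmp12, the macrophage metalloelastase, was at 376, 273 and 119 CPM against 2.64, 3.7 and 1.47 CPM (-6.61 ± 0.92, adjusted p = 6.82e-05). Itgad, a macrophage integrin, was at 7.77, 18.3 and 7.02 CPM fully fed and 0, 0 and 0.221 CPM restricted (adjusted p = 0.00594). Tm4sf19, Plch2 and Frem1 had restricted values between 0 and 0.368 CPM and adjusted p of 0.000506, 0.00327 and 9.14e-05.

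Restriction begun at 24 months was accompanied by fewer called genes. At 26 months by the labels, 679 genes differed between mice restricted from 24 months and fully fed mice (4.29% of the 15828 tested, 412 higher or 2.6% and 267 lower or 1.69%). Of the 4609 genes changed in young mice, 532 were also changed late (11.54% of the young and 78.35% of the late genes), and 530 of these moved the same way. The young and the late comparison share no library, but group sizes and spread differ between them. The median late difference of the 4609 genes, counted in their young direction, was 0.266 on the log2 scale, and 4092 had the same sign. In fatty acid synthesis 3 of 14 genes rose late (median 1.04), of 9 genes of fat expansion 0 rose and 0 fell (median -0.113), and of 18 macrophage genes 2 fell (median -0.774). The clock list had 8 higher and 3 lower (median 0.694) and the matrix list 13 of 27 lower (median -0.814).

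A direct test of the late minus the young difference called 216 genes (1.36%, 108 in each direction or 0.682%). Lep was among them, with mean CPM ± SD of 3765 ± 415 fully fed and 271 ± 159 restricted at 5 months (n = 3 each) and of 2323 ± 362 (n = 3) and 1242 ± 803 (n = 5) at 26 months, and the difference of differences was 2.90 ± 0.65 on the log2 scale (adjusted p = 0.0346). Fasn (adjusted p = 0.237), Per3 (0.817) and Col6a2 (0.473) were not called in that test. Of 19 clock genes 1 was called, with a negative difference, and of 14 fatty acid synthesis and 27 matrix genes 0 were called. Among fully fed mice alone, 17 genes differed between 26 and 5 months (0.107%, 8 higher or 0.0505% and 9 lower or 0.0569%), a count that was 8, 1271 and 1 without young fully fed replicates 1, 2 and 3 and 2, 3 and 325 without old fully fed replicates 1, 2 and 3. The count of 216 depended on single libraries. It was 17 without young restricted replicate 2, 71 without young restricted replicate 1, 59 and 103 without young fully fed replicates 1 and 2, 88, 140 and 338 without old restricted replicates 3, 4 and 5, and 43, 138 and 55 without old fully fed replicates 1, 2 and 3.

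Restriction from 12 weeks to 26 months gave a list of similar length. Between these mice and fully fed mice of 26 months, 4092 genes differed (25.9%, 2125 higher or 13.4% and 1967 lower or 12.4%). Skeletal muscle markers moved with this comparison: 4 of 14 rose (median 4.47), and their sum was 496 to 18920 CPM in lifelong restricted, 76.9 to 1186 CPM in old fully fed and 40.7 to 4295 CPM in late restricted libraries. Liver markers summed to 42.3 to 149.9, 20 to 2250 and 52.8 to 2933 CPM in the same groups, and their part in the comparisons within 26 months was not tested. With a skeletal muscle score as covariate, the late minus young difference was called for 321 genes in place of 216 and the lifelong minus young difference for 0. Of the 4609 genes changed at 5 months, 2711 were changed in the lifelong comparison (58.82% of the young and 66.25% of the lifelong genes), 2704 of these moved the same way, and the median difference in the young direction was 0.579. For fatty acid synthesis 12 of 14 genes rose (median 3.18), for fat expansion 6 of 9 fell (median -1.09), for the matrix 16 of 27 fell (median -0.949) and for macrophages 17 of 18 fell and 1 rose (median -2.04). In cholesterol synthesis 8 of 20 genes rose and 2 fell (median 0.3), beside 1 and 8 in young mice. The difference between the lifelong and the young response was called for 0 genes by edgeR (0.0%), with 1336 genes at an unadjusted p under 0.05 and 46 genes called by DESeq2, for 17 genes without lifelong restricted replicate 1 and for 1 without young fully fed replicate 2.

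**Figure D5:**
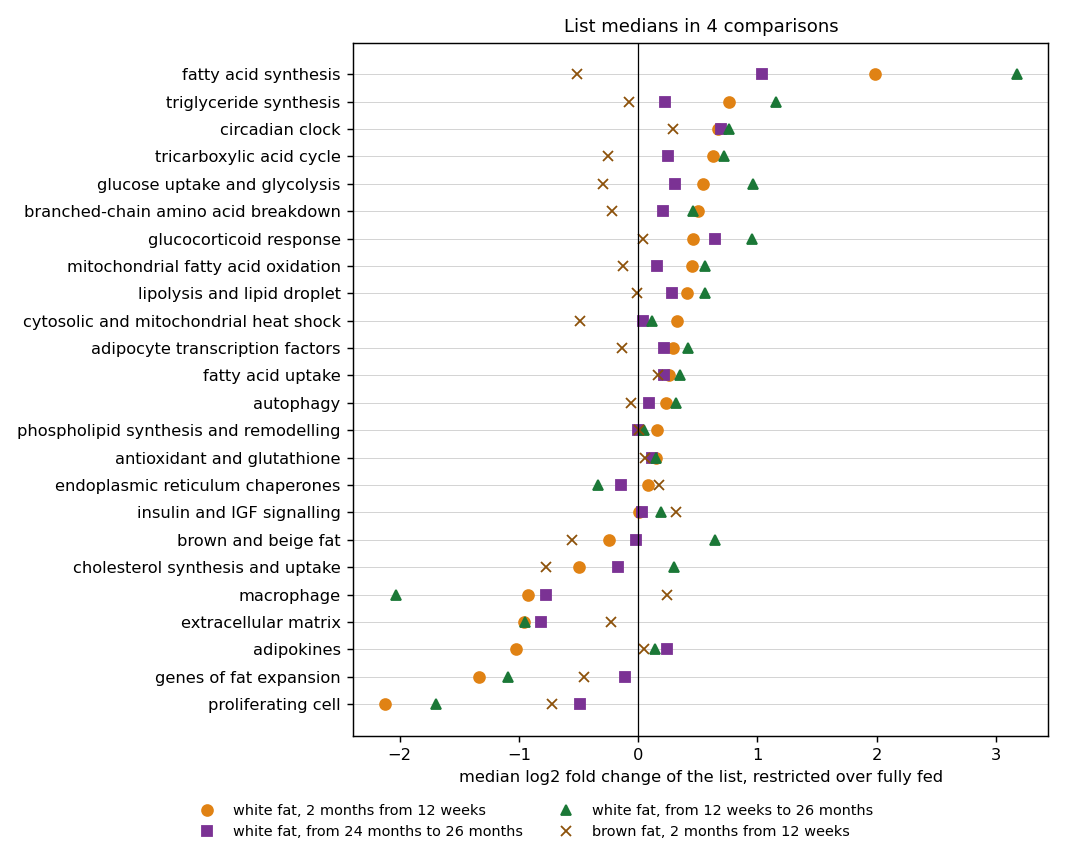
Median log2 fold change (restricted over fully fed) of 24 gene lists in white fat of young, late-restricted and lifelong-restricted mice and in brown fat of young mice. Fatty acid synthesis has medians of 1.98, 1.04 and 3.18 in white fat and -0.517 in brown fat, and the late and lifelong values share the fully fed libraries of 26 months.

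In brown fat of mice on the young schedule, no lipogenic gene of the list rose at the threshold. There, 1983 of 13845 genes changed (14.3%, 987 higher or 7.13% and 996 lower or 7.19%), a count that fell to 847, 1180, 1154 and 1020 without restricted replicate 1 or 3 or fully fed replicate 1 or 2. Of 14 fatty acid synthesis genes 0 rose and 4 fell (median -0.517), beside 11 and 1 in white fat. In the tricarboxylic acid cycle 0 of 17 rose and 2 fell (median -0.25), and of 18 macrophage markers 1 rose and 0 fell (median 0.242). Other lists had the direction of white fat, with 9 of 19 cholesterol genes lower and 1 higher (median -0.772), and 6 of 19 clock genes higher and 3 lower (median 0.296). Lep had a log2 fold change of -4.06 (adjusted p = 0.0019) and Slc27a1 of 1.90 (7.6e-06) in brown fat. White and brown fat were prepared and sequenced differently, so the tissue difference and the library type cannot be told apart, and the difference between tissues was not tested.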

How the data were processed

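Gene-level read counts for white and brown fat were used as deposited; per the submitters' processing notes, reads were handled with Trim Galore 0.3.7 and TopHat2 2.0.14 on GRCm38, and the counting program and annotation are not given in the sources used here. The deposited white-fat table holds 25913 genes, of which 25012 were matched to a symbol and position. Counts were fitted with edgeR 4.0.16 (R 4.3.3; TMM factors, its default filter on low counts, robust quasi-likelihood test) on all 22 white-fat libraries in 6 groups, and brown fat on its own 20 libraries, with Benjamini-Hochberg adjustment over all genes tested and a threshold of 0.05. Every adjusted p in the text comes from this edgeR test unless another tool is named, errors after ± are standard errors of the log2 fold change unless marked SD, and CPM use TMM-scaled library sizes. DESeq2 1.42.0, RLE factors, no filter, only the groups compared, a skeletal muscle covariate, replicate blocks and the omission of each library were tried as alternatives.

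The 22 pathway lists, 16 marker lists and the comparison itself were chosen with earlier results of these data known, so no list is independent evidence. Genes outside the lists were named by rule: the 12 per direction with the smallest adjusted p and the 6 per direction with the largest change (mean of at least 5 CPM in the higher group), each past 1 on the log2 scale and with groups that do not overlap, and 3 per direction for differences between comparisons. On simulated counts for 15684 genes of the young comparison, the test called 39 of 99 genes changed by 0.75 and 74 of 100 changed by 1.5 on the log2 scale, and 4 of 15485 unchanged genes. Replicate numbers did not pair the young libraries. None of the 6 within-group pairs of young white-fat libraries agreed within sampling noise. Promoter windows come from RefSeq tables of GRCm38.p6, liver samples were not used here, and a few members of the lists are counted but not reported here by name.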

Additional observations from a re-analysis of the deposited data

Results flagged for a closer look

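The results here differed between 2 months of restriction in young mice and restriction from 24 months to the labelled age of 26 months (27 months in the protocol text, so 2 or 3 months), by the edgeR test of the late minus the young difference. There were 216 such genes. Those from the gene lists or the rule on named genes that are reported by name follow. Each is given with its mean CPM in fully fed and restricted mice at 5 months and the same at 26 months. The late minus young difference on the log2 scale comes after these. Genes from that rule were picked by their young values or by the late minus young difference itself. The young libraries enter that difference too, so such a pick favours a late difference smaller than the young one.

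Among genes that fell in young mice, Lep was at 3765 and 271 CPM in young mice and 2323 and 1242 CPM in old mice, a difference of 2.90 (adjusted p = 0.0346). Npr3, the natriuretic peptide clearance receptor, was at 1749 and 480 CPM against 1401 and 1331 CPM (1.79, adjusted p = 0.0422). Mmp12 was at 256 and 2.6 CPM against 267 and 82.6 CPM (4.92, adjusted p = 0.0331). None of these 3 passed in the late comparison itself (adjusted p = 0.23, 0.92 and 0.116). Rarres2, chemerin, was at 586 and 204 CPM against 456 and 339 CPM (1.10, adjusted p = 0.024). Ubd was at 92.3 and 3.4 CPM against 40.1 and 19.9 CPM (3.74, adjusted p = 0.0153). Glycerol kinase (Gk) was at 34.7 and 12.5 CPM against 22.1 and 16.5 CPM (1.06, adjusted p = 0.0336). Bcat1, a branched-chain aminotransferase, was at 7.77 and 1.36 CPM against 10.1 and 8.96 CPM (2.33, adjusted p = 0.0107). H2-DMb1, of antigen loading, was at 72.7 and 15.4 CPM against 53.5 and 34 CPM (1.59, adjusted p = 0.0234). Rps6ka3, a kinase gene, was at 313 and 96.6 CPM against 259 and 175 CPM (1.13, adjusted p = 0.0306). The differences were 1.14 for Sept9, 1.76 for Ptpre, 1.12 for Tiam1, 1.19 for Dna2, 1.07 for Fam122b and 1.12 for Akap17b.

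Fitted differences against libraries at or near 0 depend on the prior count and are no bound. The pseudogene Btnl7-ps was at 0.376 and 0 CPM in young and 0.674 and 1.08 CPM in old mice, with a fitted difference of 6.38 (adjusted p = 0.0153). Frem1 was at 6.1 and 0.121 CPM against 3.4 and 2 CPM, with a fitted difference of 4.78 (adjusted p = 0.0252).

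Among genes that rose in young mice, Pdha1, of pyruvate dehydrogenase, was at 293 and 991 CPM in young mice and 260 and 428 CPM in old mice (-1.04, adjusted p = 0.0335), and it also rose late (adjusted p = 0.0154). The glycolytic enzyme Gpi1 was at 210 and 421 CPM against 200.5 and 235 CPM (-0.78, adjusted p = 0.0215) and did not pass late (adjusted p = 0.225). Mogat1, a monoacylglycerol acyltransferase, was at 6.19 and 20.9 CPM against 7.37 and 8.55 CPM (-1.54, adjusted p = 0.0351). Nampt was at 102 and 253 CPM against 109 and 150 CPM (-0.86, adjusted p = 0.0436). Acadsb, of isoleucine breakdown, was at 248.5 and 415 CPM against 200.5 and 231 CPM (-0.54, adjusted p = 0.0489). The co-chaperone gene Dnajb9 was at 34.1 and 77.1 CPM against 29 and 33.5 CPM (-0.97, adjusted p = 0.018).

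From the rule on named genes, C2cd2l was at 29.6 and 92.7 CPM against 25.8 and 30.8 CPM (-1.39, adjusted p = 0.00126), Gucd1 at 50.1 and 140 CPM against 41.5 and 53.4 CPM (-1.12, adjusted p = 0.00179), and Phyhd1 at 34.8 and 69.9 CPM against 36.4 and 38.3 CPM (-0.93, adjusted p = 0.00179). Oscp1 was at 11 and 51.3 CPM against 9.32 and 17.1 CPM (-1.35, adjusted p = 0.00601). Pth1r, the parathyroid hormone receptor, was at 27 and 101.8 CPM against 19.7 and 28.4 CPM (-1.39, adjusted p = 0.0088). Slc5a6, the vitamin transporter, was at 21.6 and 95.1 CPM against 17.6 and 32.8 CPM (-1.25, adjusted p = 0.0153). Acsm5, an acyl-CoA synthetase, was at 8.48 and 125 CPM against 13.2 and 40.5 CPM (-2.27, adjusted p = 0.032). Net1 was at 124 and 503 CPM against 129.6 and 242 CPM (-1.12, adjusted p = 0.0336). Rassf6 was at 0.523 and 22.2 CPM against 1.51 and 6.96 CPM (-3.23, adjusted p = 0.0373). The differences were -2.14 for St3gal6, -2.88 for Pcsk4 and -0.86 for Sdr39u1.

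In the 5 late-restricted libraries, 3 of these 35 genes had a library far from the others by the gap over the range (critical value 0.71): Akap17b at 11.8 CPM and Fam122b at 6.96 CPM in replicate 4, and Pcsk4 at 2.95 CPM in replicate 1. Chance gives such a gap in 0.05 of groups. The number of genes that differed between young and late restriction was 17 without young restricted replicate 2, and whether each gene above passes without single libraries was not tested.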

How the results depend on the processing

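The count of genes changed in young white fat ran from 2998 to 4306 with 1 library left out, and the share that rose moved by less than 10 percentage points under every alternative of normalization. Only the groups compared gave 3810 genes and no filter 4196. The numbers of the replicates did not pair the young libraries (correlation of same-numbered deviations -0.191, 0.003 and -0.011). With the replicate number as a block the count was 4727 in all white-fat libraries and 3173 in the 6 young ones, the late minus young count 53 and the age count 141. The 216 genes of the late minus young difference became 722 by DESeq2 and 94 with only the groups compared, and ran from 17 to 338 with 1 library left out. The lifelong minus young count of 0 became 46 by DESeq2 and ran from 0 to 17. The 17 genes that differed with age became 791 by DESeq2 and ran from 1 to 1271. Brown fat gave 3108 genes in place of 1983 with only the groups compared, and 847 to 1655 with 1 library left out.

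Of 156 genes followed through the alternatives, 1935 values kept their direction and side of the threshold, 84 lost and 8 gained the call, and 1 changed sign: Adipoq, not past the threshold, went from 0.12 to -0.022 without fully fed replicate 2, within a range up to 0.22 without replicate 3. Of the genes given above as not past the threshold, Acly passed by DESeq2 (adjusted p = 0.0494) and with the replicate block in all white-fat (0.0199) or the 6 young libraries (0.0453), Mrc1 by DESeq2 (0.0419) and with only the groups compared (0.0314), and Cd163 with only the groups compared (0.0201) and with the block in the young libraries (0.0334). Of genes given as changed, Lipe (adjusted p = 0.0626), Hadha (0.0549) and Igfbp4 (0.0581) did not pass with the block in the 6 young libraries, Slc2a4 did not with that block (0.0674) or with only the groups compared (0.0598), and Bhlhe40 did not with the block in all libraries (0.052).

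Some list counts moved by over 1.5 times. With the block in the 6 young libraries, 7 of 17 tricarboxylic acid cycle genes and 3 of 17 oxidation genes rose, 4 insulin and IGF genes rose and 4 fell, 3 genes each rose in the chaperone, heat shock and autophagy lists, 0 adipocyte markers rose, 0 adipocyte transcription factor genes and 2 glucocorticoid genes fell, 1 fibroblast gene fell, and in smooth muscle 4 rose and 1 fell. With only the groups compared, 3 autophagy genes and 1 adipocyte marker rose, 1 fibroblast gene fell, and 1 matrix and 1 macrophage gene rose. In cholesterol synthesis 3 rose with the block in all libraries and 2 by DESeq2, which also gave 4 lower insulin and IGF genes. Without the filter on low counts, 1 brown and beige gene and 0 endothelial or mesothelial genes rose. Genes near 3 counts per library are limited by depth.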

Other observations

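Genes of protein folding and defence against oxidation were mixed in young white fat. Of 20 antioxidant and glutathione genes 7 rose and 2 fell (median 0.148), and the same numbers did so without fully fed replicate 2 (median 0.047). Gpx3, a secreted glutathione peroxidase, was at 51.6, 51 and 33.4 CPM fully fed and 203, 291 and 120 CPM restricted (2.17 ± 0.54, adjusted p = 0.00566), and Sod1, the cytosolic superoxide dismutase, rose by 1.18. Sod3, the extracellular form, was at 368, 340 and 353 CPM against 137, 93.1 and 136 CPM and fell by 1.53 ± 0.28 (adjusted p = 0.000526). Of 17 endoplasmic reticulum chaperone genes 6 rose and 2 fell (median 0.084), or 4 and 2 without fully fed replicate 2 (median -0.032), with 3 that rose without restricted replicate 3 and 0 that fell without restricted replicate 1 or 2 or fully fed replicate 1. Dnajb9, a co-chaperone of the unfolded protein response, rose by 1.18 and its regulator Xbp1 by 0.67. Of 14 heat shock genes 6 rose and 0 fell (median 0.325), but 3 rose without restricted replicate 2 or fully fed replicate 2 and 2 without restricted replicate 3. Hspa9, the mitochondrial chaperone mortalin, rose by 0.67.

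In autophagy 5 of 16 genes rose and 0 fell (median 0.233). Map1lc3b, which coats the autophagosome, was at 202, 193 and 217 CPM fully fed and 325, 367 and 297 CPM restricted, without overlap (0.69 ± 0.11, adjusted p = 0.00012), and Bnip3l, a receptor for the removal of mitochondria, rose by 0.57. Without fully fed replicate 2, 6 rose and 1 fell. Of 22 phospholipid genes 5 rose and 2 fell (median 0.158), or 3 and 2 without restricted replicate 2 and 7 and 3 without fully fed replicate 2. Among all genes tested 14.8% rose and 14.3% fell. Crls1, the synthase of the mitochondrial lipid cardiolipin, was at 48.2, 50.2 and 59.2 CPM against 126, 231 and 116 CPM (1.59 ± 0.26, adjusted p = 0.00021).

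The 13 protein genes encoded by the mitochondrial genome, chosen after their values were seen, all rose, beside 14.8% of all genes tested. Their changes were 1.36 to 2.59 on the log2 scale (median 1.82, highest adjusted p = 0.0484). mt-Co1, a subunit of cytochrome c oxidase, was at 5793, 2258 and 6624 CPM fully fed and 18890, 16410 and 10420 CPM restricted (1.64 ± 0.35, adjusted p = 0.00199). For all of them but mt-Co3 the lowest library was fully fed replicate 2, the one with liver RNA, and its part in this difference was not tested. The groups overlapped for mt-Nd6 (up to 29.6 CPM fully fed and from 25 CPM restricted) and mt-Nd4l (up to 1.333 and from 1.325 CPM). The largest change, of mt-Nd6, came with 251 CPM in restricted replicate 2 against 47.8 and 25 CPM in restricted replicates 1 and 3. Fully fed libraries held few counts of mt-Co2 (0.242 to 1.54 CPM), mt-Nd4l (from 0.242 CPM) and mt-Co3 (1.45 to 2.95 CPM).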
